A study of Rattus norvegicus with 36 samples.

Results

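The genes described here are 9 rat cytochrome P450 genes of the families that oxidise drugs, dietary toxins and steroids in liver: Cyp1a1, Cyp1a2, Cyp2a1, Cyp2a2, Cyp2b3, Cyp2e1, Cyp3a2, Cyp3a9 and Cyp3a18. Probes were assigned by name and not by measured values: a probe belonged where its name in the array file, current or older, was that of a listed gene. The 9 genes themselves were chosen with earlier results of these data known. Each gene had 1 probe, so that 9 of 22523 probes and 9 of 21517 gene names were covered. Cyp3a9 stood in the file under its older name, Cyp3a13. The probe sequences were not analysed here, and whether a probe also reads a related P450 transcript was not tested.

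The study measured liver RNA of 36 male Wistar rats on Illumina RatRef BeadChips, 1 array per rat. Rats were vitamin A deficient (VAD) before the operation or vitamin A sufficient (VAS), underwent bile duct ligation (BDL), which blocks bile flow and causes cholestasis, or a sham operation, and received daily intraperitoneal retinyl palmitate (VITA), a storage form of vitamin A, or vehicle (VEH). The 8 groups were VAD BDL VITA, VAD BDL VEH, VAD sham VITA, VAD sham VEH, VAS BDL VITA, VAS BDL VEH, VAS sham VITA and VAS sham VEH, with 5 rats in each ligated group and 4 in each sham group. The sources used here state neither the doses nor the age of the rats nor the time after operation. All rats received daily injections. Arrays sat on 3 slides, each with arrays of 7 or 8 groups. Whole liver was sampled, so fewer hepatocytes and less RNA per hepatocyte cannot be told apart.

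P450 enzymes sit in the endoplasmic reticulum, carry a heme group and receive electrons from the reductase Por. In liver, their genes are read mainly in hepatocytes and are set by ligand-activated receptors: Ahr acts on the Cyp1a genes, and the pregnane X receptor Nr1i2, which binds DNA together with a retinoid X receptor, acts on Cyp3a genes. In rats several of these enzymes also differ by sex, because the liver reads the pulsed or steady pattern of growth hormone. Cyp3a2, Cyp3a18 and Cyp2a2 are known as male-predominant, Cyp2a1 and Cyp3a9 as female-predominant.

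Levels are given as normalised log2 intensity, where a step of 1 is a doubling, and levels of different probes cannot be set against each other. Changes are log2 differences of group means with their standard error (SE) from 1 limma model over all 36 arrays. A gene was called higher or lower at a two-sided p under 0.05 after adjustment over the 9314 genes tested. Arrays had 6577 to 8587 probes detected at a detection p under 0.01, and precision is set by how many rats each group had. Of 11 hepatocyte markers with a probe, 10 were detected on all 36 arrays, and their mean level lay between 14.36 and 14.91 in every rat. Apob had a probe that was detected on 0 arrays. All 9 P450 genes passed the filter of detection on at least 4 arrays. Cyp1a1 did so with 5 detected arrays, all of VAD rats, Cyp3a9 with 35 and the other genes with 36.

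In 2 ligated VAD groups 1 liver stood apart from the rest in several genes or marker lists. Rat 2 of the VAS sham VITA group stood apart for Cyp3a2 (11.66, against 13.56 to 13.91 in the others). Rat 5 of the VAD BDL VITA group had Cyp3a9 at 9.81, against 5.97 to 7.69 in the other 4 rats, and Cyp2a2 at 13.53, against 12.23 to 12.61. Its Cyp1a2 was 11.52, with 8.94 to 10.54 in the others, and its Cyp1a1 was 7.34, with 4.41 to 4.91. Its bile duct cell (cholangiocyte) marker list, which averaged 8.12, was above that of every sham rat (6.44 to 7.09). It was the lowest of its group, against 8.24 to 9.18 in the other 4 rats. Its macrophage list was also the lowest of the group (10.26, against 10.60 to 10.80). Its stellate cell and myofibroblast list (7.88) lay inside the range of the others (7.60 to 8.59). Rat 1 of the VAD BDL VEH group had the lowest hepatocyte marker list of its group (14.36, against 14.58 to 14.66 in the other 4) and the highest stellate cell and myofibroblast list (10.60, against 9.59 to 9.90). Its Cyp3a2 (7.55) and Cyp2b3 (11.04) were the lowest of all rats. Without it the ligation change in VAD VEH rats was -4.24 for Cyp3a2 (adjusted p = 8.8e-09) and -0.87 for Cyp2b3 (adjusted p = 2.3e-05). The difference between VAD and VAS BDL VEH rats was then -2.14 for Cyp3a2 (adjusted p = 0.00037) and -0.83 for Cyp2b3 (adjusted p = 4e-05). Where leaving out either of these 2 ligated rats ended a call or moved a called value by over 1.5 times, the value without it stands beside the result.

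Ligation lowered P450 genes in all 4 settings and raised none of the 9. In VAD VEH rats 6 of 9 were called lower (19.7% of all genes were called lower), with a median change of -1.04 over the 9 genes against -0.04 over all genes. In VAS VEH rats 4 of 9 were called lower (6.87% of all genes), with a median of -0.85 against -0.01. In VAD VITA rats 4 of 9 were lower (11% of all genes), with a median of -0.89 against -0.03, and in VAS VITA rats 5 of 9 were lower (10.8% of all genes), with a median of -1.21 against -0.01. Comparisons that share a group, such as those that use the VAD BDL VEH rats, are not independent of each other.

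Among ligated VEH rats, 3 of 9 genes were lower in deficient than in sufficient livers. The 1 higher gene is near the share of all genes. VAD rats differed from VAS rats in 4 of 9 genes (26.4% of all genes were called, 14.3% higher and 12.1% lower), with Cyp1a2 higher and Cyp3a2, Cyp3a18 and Cyp2b3 lower. Retinyl palmitate raised 4 of 9 genes in VAD BDL rats (7.67% of all genes were called higher): Cyp3a2, Cyp3a9, Cyp3a18 and Cyp2b3. The medians over the 9 genes were -0.17 in the first of these comparisons, against -0.04 over all genes, and 0.33 in the second, against 0. In sham rats none of the 9 was called. VAD sham VEH against VAS sham VEH gave 0 calls by limma (1.11% of all genes) and 0 genes at an unadjusted p under 0.05, and VAD sham VITA against VAD sham VEH gave 0 calls (1.3% of all genes) and 1 gene, Cyp1a2, at an unadjusted p under 0.05. VAD sham VITA against VAS sham VITA gave 0 calls (0% of all genes) and 0 genes unadjusted. In VAS rats, with both operations pooled, retinyl palmitate gave 0 calls (0% of all genes) and 0 genes unadjusted. Between the ligated groups given retinyl palmitate, VAD against VAS, limma called 0 of 9 (0.0322% of all genes), and 3 genes had an unadjusted p under 0.05: Cyp1a2 (0.99), Cyp3a2 (-1.15) and Cyp3a9 (1.24). Without VAD BDL VITA rat 5 these values were 0.63, -1.07 and 0.60.

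**Figure D1:**
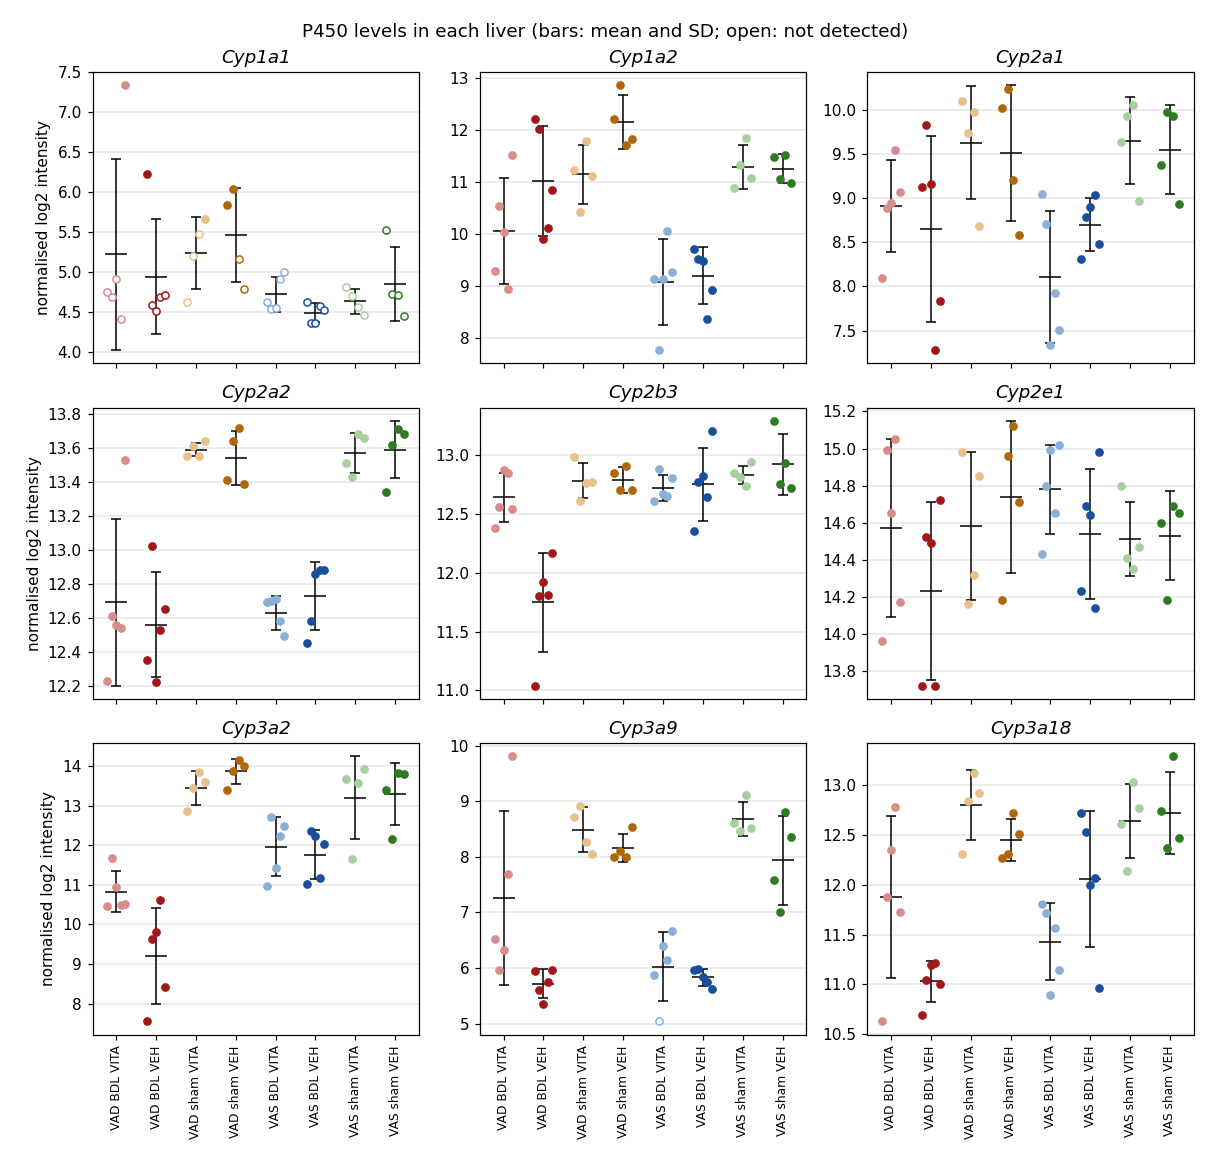
Normalised log2 intensity of each P450 gene in each of the 36 livers, with the 8 groups on the horizontal axis. Each point is 1 rat, filled where the probe was detected and open where it was not, and bars give the mean and SD. Cyp3a2 spans the widest range, with its lowest group mean of 9.20 in VAD BDL VEH livers, Cyp2b3 is low in that group alone, and Cyp2a2 separates ligated from sham livers except for 1 VAD BDL VITA rat at 13.53.

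The Cyp3a enzymes metabolise steroids, bile acids and many drugs. RefSeq promoter windows of the assembly GRCr8, which run from 250 bases before to 50 bases after the start site, were at hand for 7 of the 9 genes. Cyp1a1 and Cyp2a2 had none. All 3 Cyp3a genes were called lower after ligation in VAD VEH rats and higher with retinyl palmitate in VAD BDL rats, as was Cyp2b3. The windows of the Cyp3a genes, known targets of Nr1i2, are shown here. They lie at chr12:14343808-14344107 on the minus strand (Cyp3a2), chr12:21960111-21960410 on the minus strand (Cyp3a9) and chr12:13994062-13994361 on the plus strand (Cyp3a18). Capitals mark the hexamer AGTTCA on either strand, 1 variant of the element that nuclear receptors bind, and each sequence reads 5′ to 3′ along its gene.
Cyp3a2: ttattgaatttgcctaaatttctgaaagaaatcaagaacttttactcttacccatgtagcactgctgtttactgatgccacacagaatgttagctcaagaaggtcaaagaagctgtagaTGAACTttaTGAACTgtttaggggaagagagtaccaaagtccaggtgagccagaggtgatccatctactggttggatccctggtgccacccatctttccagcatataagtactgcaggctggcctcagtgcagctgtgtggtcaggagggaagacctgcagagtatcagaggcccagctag
Cyp3a9: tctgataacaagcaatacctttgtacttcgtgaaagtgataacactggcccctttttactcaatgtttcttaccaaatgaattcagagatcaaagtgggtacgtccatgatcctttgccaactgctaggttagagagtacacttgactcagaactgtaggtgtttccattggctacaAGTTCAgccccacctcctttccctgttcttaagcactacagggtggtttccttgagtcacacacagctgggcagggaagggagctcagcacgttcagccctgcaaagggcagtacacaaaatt
Cyp3a18: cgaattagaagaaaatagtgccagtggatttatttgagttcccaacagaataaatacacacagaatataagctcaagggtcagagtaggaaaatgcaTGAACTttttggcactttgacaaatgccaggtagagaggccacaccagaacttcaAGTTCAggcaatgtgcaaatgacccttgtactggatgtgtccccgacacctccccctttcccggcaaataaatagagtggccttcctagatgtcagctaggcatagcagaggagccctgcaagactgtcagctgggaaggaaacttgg

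All 3 Cyp3a windows held the hexamer AGTTCA, as did 14.5% of 33469 promoter windows of this length, while none of the other 4 windows held it. In Cyp3a2, 2 copies stood at -131 to -126 and at -122 to -117, counted from the start site. These copies form a direct repeat of AGTTCA with 3 bases of any kind between them, an arrangement known to be bound by Nr1i2 with a retinoid X receptor. That exact repeat was found in 2 of the 33469 windows (0.00598%), and Cyp3a2 was 1 of them. The pattern searched was spelled as the Cyp3a2 window reads, and repeats built from other receptor sequences were not searched. The share therefore does not show how common receptor repeats of this spacing are, nor whether Cyp3a2 is unusual in having such a repeat. In Cyp3a18 the hexamers stood at -153 to -148 and at -98 to -93, on opposite strands, and in Cyp3a9 the hexamer stood at -73 to -68. A related receptor hexamer, AGGTCA, occurred in the windows of Cyp3a2, Cyp1a2 and Cyp2e1 and in 16.2% of all windows. TTCNNNGAA, an element of the growth hormone factor STAT5, was found in 0 of the 7 windows and 8.87% of all windows, and GCGTG, the core of the Ahr element, in 0 of the 7 and 29.7% of all. Both strands were searched, and sites outside the windows were not. Cyp1a1 had no window, so Cyp1a2 was the only Cyp1a gene searched for the Ahr core. A match describes letters only, and no binding was measured.

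**Figure D2:**
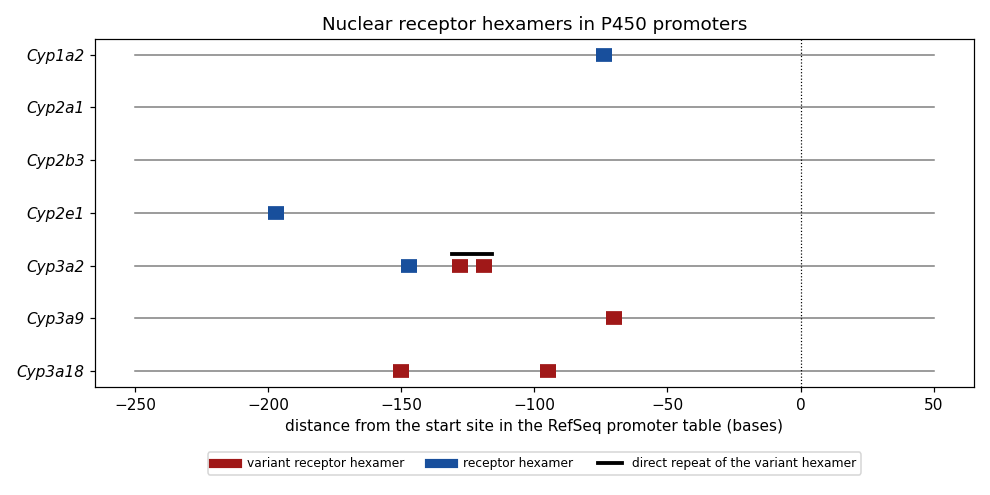
Position of receptor hexamers in the 7 promoter windows, in bases from the start site, which is at 0. Red boxes are AGTTCA, blue boxes are AGGTCA and the black bar is the direct repeat of AGTTCA, which only the Cyp3a2 window of these 7 holds.

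Cyp3a2, known for testosterone hydroxylation and male-predominant in rats, had the largest ligation change of the 9 in VAD rats but not VAS rats. It read 7.55, 9.62, 9.81, 10.62 and 8.42 in VAD BDL VEH rats, against 13.40, 13.88, 14.14 and 14.01 in VAD sham VEH rats. Every ligated rat was below every sham rat, and the group means differed by -4.65 (SE 0.48, adjusted p = 1.8e-09), 25.2-fold lower after ligation. This was rank 14 by size of change among the 9314 genes. In VAS VEH rats ligation left Cyp3a2 at 11.03, 12.36, 12.22, 11.17 and 12.03, against 13.40, 12.15, 13.81 and 13.79 in sham rats. The groups overlapped through sham rat 2, and the change was -1.53 (SE 0.48, adjusted p = 0.024), 2.88-fold lower. That call was lost in 5 of 9 fits that left out 1 array (adjusted p up to 0.087), after omission of VAS BDL VEH rat 1 or 4 or of VAS sham VEH rat 1, 3 or 4. It was also lost with no filter (adjusted p = 0.055).

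The loss of Cyp3a2 after ligation was larger in VAD than in VAS rats, by -3.13 on the log2 scale (SE 0.68, adjusted p = 0.0028 for the diet by ligation term), where 7.92% of all genes and 2 of the 9 were called. Within ligated VEH rats VAD livers averaged 9.20 ± 1.21 and VAS livers 11.76 ± 0.62 (SD, n = 5 each), a 5.88-fold lower level in VAD rats (log2 -2.56, SE 0.45, adjusted p = 4.4e-05) with no overlap. On single slides this difference ran from -4.14 to -1.98, each value below 0. In sham VEH rats the same contrast was 0.57 (SE 0.51, adjusted p = 0.79).

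Retinyl palmitate raised Cyp3a2 in VAD BDL rats without bringing it to sham levels. It read 10.47, 11.67, 10.95, 10.49 and 10.51 in VAD BDL VITA rats, against 7.55, 9.62, 9.81, 10.62 and 8.42 in VAD BDL VEH rats. One VEH rat lay inside the VITA range, and the change was 1.61 (SE 0.45, adjusted p = 0.011), 3.06-fold higher. It was 1.20 (adjusted p = 0.065) without VAD BDL VEH rat 1, the lowest liver of all, and 0.99 to 3.51 on single slides. Even with retinyl palmitate, ligated VAD rats (10.82 ± 0.52, n = 5) were 6.15-fold below their sham group (13.44 ± 0.42, n = 4; log2 -2.62, adjusted p = 0.0001). In VAS VITA rats ligation gave -1.24 (SE 0.48, adjusted p = 0.056), and -1.75 (adjusted p = 0.0084) without VAS sham VITA rat 2. The Cyp3a2 of that rat, 11.66, lay below the 13.56 to 13.91 of its group. The change was also called without VAS BDL VITA rat 2 (-1.42, adjusted p = 0.036) and with slide as a block (-1.56, adjusted p = 0.013). Median scaling (-1.28, adjusted p = 0.029), the authors' values (-1.25, adjusted p = 0.04) and normexp with offset 50 (-1.23, adjusted p = 0.048) called it too. The retinyl palmitate by diet term in ligated rats was 1.41 (SE 0.64, adjusted p = 0.15). It was 1.82 (adjusted p = 0.047) with slide as a block, 1.07 (adjusted p = 0.26) with the authors' values and 1.0 (adjusted p = 0.30) without VAD BDL VEH rat 1.

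Cyp3a9 was called lower in all 4 ligation comparisons, in VAD VITA rats with a call that most alternatives below lost. In VAS VEH rats it read 5.97, 5.99, 5.84, 5.74 and 5.63 after ligation, against 7.59, 7.01, 8.81 and 8.35 after sham operation (-2.11, SE 0.45, adjusted p = 0.00095). In VAD VEH rats it read 5.95, 5.60, 5.35, 5.74 and 5.97 after ligation, against 7.99, 8.11, 8.00 and 8.54 after sham operation (-2.44, SE 0.45, adjusted p = 4.6e-05). The groups did not overlap in either diet, and the ligated livers lay close to the lowest detected signals of the arrays, 5.30 to 6.07. The changes were smaller in the authors' value table, with -0.76 in VAS VEH rats (adjusted p = 0.021) and -0.86 in VAD VEH rats (adjusted p = 0.0034). In VAS VITA rats the change was -2.65 (adjusted p = 3.5e-05), and -1.10 from that table.

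With retinyl palmitate Cyp3a9 read 6.53, 5.97, 6.32, 7.69 and 9.81 in VAD BDL rats, against 5.95, 5.60, 5.35, 5.74 and 5.97 with vehicle. The groups met at 5.97, and the change was 1.54 (SE 0.43, adjusted p = 0.0096), 2.92-fold higher. Without rat 5 of the VITA group it was 0.91 (adjusted p = 0.044), and with the authors' values it was 0.60 (adjusted p = 0.058). A fit to the groups compared alone also lost the call (adjusted p = 0.1). The retinyl palmitate by diet term was 1.35 (SE 0.60, adjusted p = 0.14). It was 1.74 (adjusted p = 0.043) with slide as a block, 0.54 (adjusted p = 0.27) with the authors' values and 0.72 (adjusted p = 0.28) without rat 5. On single slides the rise was 0.30, 1.53 and 3.96, the last on slide 3, where rat 5 was the only VITA liver. Against VAD sham VITA rats (8.71, 8.92, 8.27 and 8.05) the VAD BDL VITA rats were lower by -1.22 (SE 0.45, adjusted p = 0.044). That call was lost in 5 of 9 other settings (adjusted p 0.052 to 0.22, with -0.46 and 0.15 from the authors' values) and in 6 of 9 fits without 1 array. On slide 3 the change was 1.76, and without rat 5 it was -1.86 (adjusted p = 5e-05).

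Cyp3a18, a male-predominant steroid hydroxylase, read 10.69, 11.05, 11.20, 11.22 and 11 in VAD BDL VEH rats, against 12.27, 12.31, 12.72 and 12.51 in VAD sham VEH rats. The groups did not overlap (-1.42, SE 0.31, adjusted p = 0.00038). Ligated VAD VEH rats were also below ligated VAS VEH rats, whose values were 12.72, 12.53, 12.00, 12.07 and 10.96 (-1.02, SE 0.29, adjusted p = 0.008). VAS rat 5, at 10.96, lay inside the VAD range, and on its slide the difference was 0.15, against -0.91 and -1.94 on the others.

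The change of Cyp3a18 with retinyl palmitate in ligated rats differed between diets. VAD BDL rats read 10.63, 11.88, 12.35, 12.78 and 11.73 with VITA and 11.03 ± 0.21 (SD, n = 5) with VEH, and VAS BDL rats read 11.43 ± 0.39 with VITA and 12.06 ± 0.68 with VEH (SD, n = 5 each). The retinyl palmitate by diet term was 1.47 (SE 0.41, adjusted p = 0.014), in a comparison where 13.4% of all genes and 2 of the 9 were called, and it was called under every alternative tried. The rise within VAD BDL rats was 0.84 (SE 0.29, adjusted p = 0.043), and 9 of 10 fits without 1 array lost that call (adjusted p 0.0026 to 0.16). It was 0.88 (adjusted p = 0.056) without VAD BDL VITA rat 5 and 0.76 (adjusted p = 0.11) without VAD BDL VEH rat 1. The call was also lost with no filter (adjusted p = 0.089) and in a fit to the groups compared (adjusted p = 0.11). After ligation Cyp3a18 was also lower in VAS VITA rats (-1.21, SE 0.31, adjusted p = 0.004) and in VAD VITA rats (-0.92, SE 0.31, adjusted p = 0.027). The change of -0.66 in VAS VEH rats was not called (SE 0.31, adjusted p = 0.15; 0.07 on slide 1), and the diet by ligation term was -0.76 (SE 0.44, adjusted p = 0.35). The call in VAD VITA rats was lost in 4 of 9 fits without 1 array, with -0.61 (adjusted p = 0.13) without VAD BDL VITA rat 1. It was also lost with no filter (adjusted p = 0.058) and in a fit to the groups compared (adjusted p = 0.1).

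**Figure D3:**
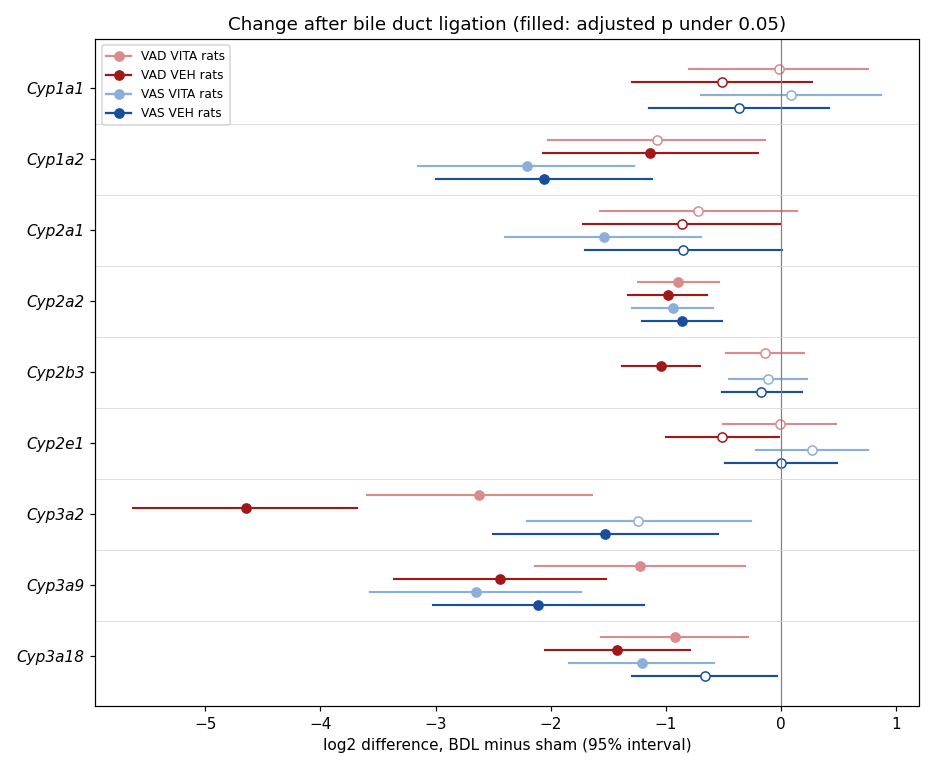
Change of each P450 gene after ligation, as the log2 difference of BDL minus sham with its 95% interval, in VAD VITA, VAD VEH, VAS VITA and VAS VEH rats. Filled points had an adjusted p under 0.05. Cyp2a2 lies between -0.98 and -0.86 in all 4 comparisons, whereas Cyp3a2 runs from -4.65 to -1.24 and the call for Cyp2b3 stands in VAD VEH rats alone.

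The Cyp2a genes encode steroid hydroxylases of opposite sex preference in rats. Cyp2a2, the male-predominant one, fell by a similar amount in every ligation comparison. It read 12.35, 13.02, 12.22, 12.53 and 12.65 in VAD BDL VEH rats, against 13.41, 13.64, 13.72 and 13.39 in VAD sham VEH rats (-0.98, SE 0.17, adjusted p = 1.9e-05). In VAS VEH rats it read 12.45, 12.58, 12.86, 12.88 and 12.88 after ligation, against 13.34, 13.62, 13.71 and 13.68 after sham operation (-0.86, SE 0.17, adjusted p = 0.00041). These are 1.98-fold and 1.81-fold decreases, and no ligated liver reached a sham liver in either diet. With retinyl palmitate the decreases were 1.85-fold in VAD rats (adjusted p = 0.00018) and 1.91-fold in VAS rats (adjusted p = 9.6e-05). On slide 3, where VAD BDL VITA rat 5 was the only ligated liver of that group, the change in VAD VITA rats was -0.11, and without that rat it was -1.10 (adjusted p = 3.4e-07). Deficiency gave -0.17 in ligated VEH rats (95% interval -0.50 to 0.15), and retinyl palmitate gave 0.14 in VAD BDL rats (-0.19 to 0.47), and -0.07 without VAD BDL VITA rat 5. The diet by ligation term was -0.13 (95% interval -0.62 to 0.37).

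Cyp2a1, the female-predominant one, was called only in VAS VITA rats. It read 9.05, 8.71, 7.34, 7.93 and 7.51 after ligation, against 9.64, 9.93, 10.05 and 8.97 after sham operation (-1.54, SE 0.42, adjusted p = 0.0065; -1.02 from the authors' value table). The groups overlapped between 8.97 and 9.05. In VAD VEH rats the change was -0.86 (adjusted p = 0.10) and in VAS VEH rats -0.85 (adjusted p = 0.18). With slide as a block these became -1.08 (adjusted p = 0.0017) and -0.94 (adjusted p = 0.011), and the value in VAD VITA rats, -0.72 (adjusted p = 0.23), had an adjusted p of 0.042, although it was 0.38 on slide 3. Its values in ligated VAD VEH rats were spread widely, from 7.28 to 9.83.

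Cyp2b3, a constitutive member of the Cyp2b family that phenobarbital does not induce, had 1 group below all others, VAD BDL VEH. It read 11.04, 11.80, 11.92, 11.81 and 12.17 there, against 12.85, 12.70, 12.91 and 12.70 in VAD sham VEH rats (-1.04, SE 0.17, adjusted p = 5.7e-06). The other 7 group means lay between 12.64 and 12.92, and the highest VAD BDL VEH rat was below the lowest rat of each of them. In VAS VEH rats ligation changed it by -0.17 (95% interval -0.51 to 0.18; 0.48 on slide 3), and the diet by ligation term was -0.88 (SE 0.24, adjusted p = 0.017). That term was no longer called after median scaling (-0.97, adjusted p = 0.052) or in a fit to its own groups (adjusted p = 0.068). Against ligated VAS VEH rats (12.35, 12.77, 12.82, 12.64 and 13.20) the VAD BDL VEH level was 2.01-fold lower (-1.01, SE 0.16, adjusted p = 7.4e-06), and -1.52 to -0.87 on single slides.

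Retinyl palmitate brought Cyp2b3 in VAD BDL rats to 12.38, 12.56, 12.87, 12.85 and 12.54, with every VITA rat above every VEH rat (0.89, SE 0.16, adjusted p = 9.2e-05). The retinyl palmitate by diet term was 0.92 (SE 0.22, adjusted p = 0.0044). With retinyl palmitate, ligated VAD rats differed from their sham group by -0.14 (95% interval -0.48 to 0.20) and from ligated VAS VITA rats by -0.08 (-0.40 to 0.24).

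The Cyp1a enzymes are classical Ahr targets that oxidise aromatic amines and, for Cyp1a2, caffeine. Cyp1a2 read 9.71, 9.52, 9.48, 8.36 and 8.93 in VAS BDL VEH rats, against 11.48, 11.07, 11.52 and 10.98 in VAS sham VEH rats. No ligated rat reached a sham rat, and the level was 4.17-fold lower after ligation (-2.06, SE 0.46, adjusted p = 0.0015). With retinyl palmitate the decrease in VAS rats was 4.64-fold (-2.21, SE 0.46, adjusted p = 0.00047).

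Among ligated VEH rats, Cyp1a2 was higher in deficient than in sufficient livers. VAD BDL VEH livers read 12.22, 12.02, 9.90, 10.12 and 10.86, all above the 5 VAS BDL VEH livers, a 3.54-fold difference (1.83, SE 0.43, adjusted p = 0.0015) that ran from 1.56 to 2.60 on single slides. The decrease after ligation in VAD VEH rats was -1.14 (SE 0.46, adjusted p = 0.048), with 2 ligated rats inside the sham range of 11.71 to 12.87. That call was lost in 6 of 9 fits without 1 array (adjusted p up to 0.16), with slide as a block (adjusted p = 0.088), with no filter and in a fit to its own groups, and the change was -0.33 on slide 1. The diet by ligation term was 0.92 (SE 0.65, adjusted p = 0.46), so a difference in the ligation response itself was not shown. In sham VEH rats, VAD livers (12.22, 12.87, 11.71 and 11.84) were all above VAS livers (11.48, 11.07, 11.52 and 10.98), by 0.90 (SE 0.49), but the adjusted p was 0.52, and 5.23% of all genes had groups that do not overlap in that contrast.

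Retinyl palmitate gave Cyp1a2 values of 9.30, 10.54, 10.04, 8.94 and 11.52 in VAD BDL rats, a change of -0.96 (SE 0.43, adjusted p = 0.14), and of -1.32 (adjusted p = 0.032) without rat 5 and -0.66 (adjusted p = 0.37) without VAD BDL VEH rat 1. On single slides it ran from -2.30 to 1.03, the last on slide 3, where rat 5 was the only VITA liver. Against VAD sham VITA rats the change was -1.08 (SE 0.46, adjusted p = 0.087), -1.44 (adjusted p = 0.016) without rat 5 and 0.40 on slide 3. In VAD sham rats the change was -1.02 (SE 0.49, adjusted p = 0.41). In VAS rats, both operations pooled, it was -0.05 (95% interval -0.71 to 0.62).

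Cyp1a1, an enzyme that rises with Ahr ligands in rodent liver, was detected on 5 of 36 arrays, and on none of the VAS arrays. The detected livers were 2 VAD sham VEH rats at 5.84 and 6.04, 1 VAD sham VITA rat at 5.66, 1 VAD BDL VEH rat at 6.23 and 1 VAD BDL VITA rat at 7.34. All other values, from 4.36 to 5.52, were not well above background and have no order. No comparison called it.

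**Figure D4:**
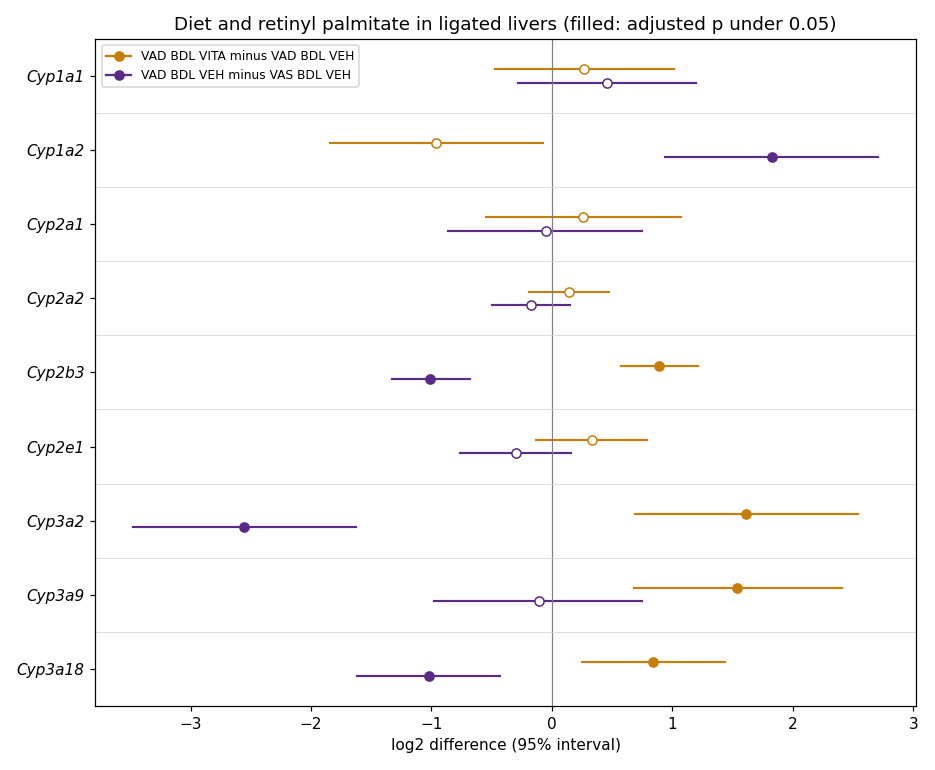
Log2 differences with 95% intervals in ligated rats, for VAD BDL VITA minus VAD BDL VEH (orange) and VAD BDL VEH minus VAS BDL VEH (purple). Both contrasts use the VAD BDL VEH rats. Filled points had an adjusted p under 0.05. Cyp2b3, Cyp3a2 and Cyp3a18 are called in both, Cyp1a2 is called higher in deficient rats, and Cyp3a9 is called only for retinyl palmitate.

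Cyp2e1, the ethanol and acetaminophen oxidising enzyme of hepatocytes around the central vein, was called in none of the 13 comparisons. It read 13.72, 14.52, 14.49, 13.72 and 14.72 in VAD BDL VEH rats, against 14.18, 14.96, 15.12 and 14.71 in VAD sham VEH rats (-0.51, 95% interval -1.0 to -0.02, adjusted p = 0.09). This value had an adjusted p of 0.049 after median scaling (-0.68), 0.029 without VAD sham VEH rat 1 and 0.043 without VAD BDL VEH rat 5. In VAS VEH rats the change was 0.00 (95% interval -0.49 to 0.49). Its raw intensity reached 28.6% to 96.2% of the highest intensity of each array, and whether saturation narrows its differences was not tested.

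Set by role, the regulators of these enzymes were examined as a list of 15 receptors and partners, 11 of them tested. After ligation 6 of 11 were called lower in VAD VEH rats (19.7% of all genes; median -0.94) and 5 of 11 in VAS VEH rats (6.87% of all genes; median -0.55), with none higher. Nr1i2, the receptor for Cyp3a genes, was lower in ligated VAD VEH rats (-1.05, SE 0.19, adjusted p = 4.6e-05), while its change in VAS VEH rats was -0.35 (adjusted p = 0.24). It was lower in ligated VAD than VAS VEH rats (-0.85, adjusted p = 0.00058) and higher with retinyl palmitate in VAD BDL rats (0.88, adjusted p = 0.00072). Its DNA partner Rxra fell after ligation in VAD VEH rats (-0.94, adjusted p = 4e-05) and VAS VEH rats (-0.55, adjusted p = 0.025), and retinyl palmitate gave 0.04 in VAD BDL rats (adjusted p = 0.91). Hnf4a, a master factor of hepatocyte genes, fell by 0.96 and 1.12 in the same 2 ligation comparisons (adjusted p = 0.0012 and 7e-04). The bile acid receptor Nr1h4 was lower in VAD than VAS BDL VEH rats (-1.41, adjusted p = 8.7e-05) and higher with retinyl palmitate (1.59, adjusted p = 3.5e-05). After ligation it changed by -1.47 in VAD VEH rats and -0.86 in VAS VEH rats (adjusted p = 6.3e-05 and 0.028). Nr0b2 was called in 3 of these comparisons: ligation in VAD VEH rats (-2.76), VAD against VAS BDL VEH rats (-2.25) and retinyl palmitate (1.76). Ligation lowered Cebpa in VAD VEH (-1.27) and VAS VEH rats (-1.04), and Onecut1 in VAS VEH rats (-1.86). Nr1i3, the constitutive androstane receptor, was not called in these 4 comparisons (-0.69 to 0.17).

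For the Cyp1a genes, Ahr itself changed by 0.52 in VAD against VAS BDL VEH rats (SE 0.25, adjusted p = 0.13) and was lower with retinyl palmitate in VAD BDL rats (-0.78, SE 0.25, adjusted p = 0.026). Other Ahr target genes did not move in 1 direction. In VAD against VAS BDL VEH rats 2 of 7 tested were called higher and 3 lower (14.3% and 12.1% of all genes; median -0.61): Cyp1b1, a P450 also read outside hepatocytes, was higher by 2.18 (adjusted p = 8.3e-09) and the quinone reductase Nqo1 by 1.23 (adjusted p = 0.00091), while the glutathione transferases Gsta2 and Gsta5 were lower by -4.06 and -3.31 (adjusted p = 2.9e-11 and 3e-08). With retinyl palmitate in VAD BDL rats, Cyp1b1 was lower (-1.98, adjusted p = 1.9e-07) and Gsta2 and Gsta5 higher (3.37 and 2.49).

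Of the electron donors and heme enzymes, 9 of 12 listed genes were tested. After ligation 5 of 9 were called lower in VAD VEH rats (19.7% of all genes; median -0.45) and 3 of 9 in VAS VEH rats (6.87% of all genes; median -0.40), none higher. The cytochrome b5 reductase Cyb5r3 fell by 1.80 in VAD VEH rats (adjusted p = 1.8e-08) and by 0.90 in VAS VEH rats (adjusted p = 0.0022). The heme synthesis enzymes Alad and Cpox fell by 0.91 and 0.70 in VAD VEH rats and by 0.79 and 0.66 in VAS VEH rats (adjusted p = 8e-04 and 0.00034). Por, the shared reductase, was lower in VAD than VAS BDL VEH rats (-1.24, SE 0.34, adjusted p = 0.0053).

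Other sex-dependent liver genes were read as 2 lists. Of 8 male-predominant genes tested, 6 were called lower and 1 higher after ligation in VAD VEH rats (19.7% of all genes were lower; median -1.94), and 6 lower in VAS VEH rats (6.87% of all genes; median -1.35). In VAD against VAS BDL VEH rats 5 of 8 were lower (12.1% of all genes), among them Cyp2c11 (-5.14, adjusted p = 2.3e-10) and Cyp2c13 (-4.98, adjusted p = 4.9e-10), and retinyl palmitate raised 5 of 8 in VAD BDL rats (7.67% of all genes; median 1.82). In VAD against VAS sham VEH rats 3 of 8 were lower (1.11% of all genes were called in either direction): Cyp2c13 (-5.52), Cyp2c22 (-3.94) and Obp3 (-3.91), with adjusted p of 5e-09, 1.3e-09 and 2.1e-06. Of 3 female-predominant genes tested, 2 moved in opposite directions in VAD against VAS BDL VEH rats: Cyp2c12 was higher (2.78, adjusted p = 3.8e-08) and Cyp2c7 lower (-3.78, adjusted p = 1e-13). Cyp2c12 was also higher in VAD than VAS sham VEH rats (5.80, adjusted p = 3.1e-13), where none of the 9 P450 genes described here was called. Of 9 growth hormone signalling genes tested, 1 was higher and 2 were lower in VAD than VAS BDL VEH rats, with a list median of -0.14. These counts lie near the shares of all genes (14.3% and 12.1%). The receptor Ghr was lower (-2.06, adjusted p = 7.2e-09), as was the growth hormone target Igfals (-2.10, adjusted p = 2.1e-05), and the receptor's kinase Jak2 was higher (0.65, adjusted p = 0.0038). With retinyl palmitate in VAD BDL rats Ghr (1.83) and Igfals (1.35) were higher and Jak2 (-0.64) lower, and the other 6 genes were not called.

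By position in the lobule, 8 genes of hepatocytes around the central vein, where Cyp1a2 and Cyp2e1 are active, were examined: in VAD against VAS BDL VEH rats 1 was higher and 1 lower (median 0.28), a share near that of all genes (14.3% higher and 12.1% lower). Of 14 periportal genes, 8 were lower in that comparison (12.1% of all genes; median -0.54), such as the histidine-degrading enzyme Hal (-1.93, adjusted p = 5.4e-07), and 7 were higher with retinyl palmitate in VAD BDL rats (7.67% of all genes; median 0.54).

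Markers of some other cells moved with ligation and diet. The mean of 8 stellate cell and myofibroblast markers was 7.60 to 8.59 in VAD BDL VITA rats, 9.59 to 10.60 in VAD BDL VEH rats, 6.51 to 7.05 in VAD sham VEH rats, 7.10 to 7.25 in VAS BDL VEH rats and 6.09 to 6.42 in VAS sham VEH rats. All 8 were called higher in VAD than VAS BDL VEH rats (14.3% of all genes). All 8 were lower with retinyl palmitate in VAD BDL rats, where 1582 of the 9314 genes tested were called in either direction. The macrophage list averaged 11.31 to 11.83 in VAD BDL VEH rats and 10.12 to 10.66 in VAS BDL VEH rats. The cholangiocyte genes Sox9 and Cftr were detected on 0 arrays. Of 10 macrophage markers, 9 were higher and of 6 cholangiocyte markers all 6 were higher in VAD than VAS BDL VEH rats (14.3% of all genes). The hepatocyte list averaged 14.36 to 14.66 in VAD BDL VEH rats and 14.66 to 14.78 in VAS BDL VEH rats. Of its 10 markers 1, Apoa2, was called lower, a share near the 12.1% of all genes. The T and NK cell list averaged 6.28 to 7.12 in VAD BDL VEH rats and 6.55 to 7.22 in VAS BDL VEH rats, with genes called in both directions. The endothelial list averaged 6.81 to 7.31 and 6.47 to 6.98 in the same 2 groups. The neutrophil list averaged 7.45 to 7.94 and 5.84 to 7.08. The part of these cells in the P450 differences was not tested.

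As a description over the 8 group means, with no test, the genes most like each P450 gene were named. Cyp3a2 ran closest to Fahd2a (r = 0.994), Trappc12 (0.992) and Aspdh (0.989), with r of 0.760, 0.675 and 0.857 over the 36 arrays. Cyp2b3 ran with Aspg (0.996), Serpina3c (0.994) and the retinoid X receptor Rxrg (0.988), with r of 0.827, 0.880 and 0.865 over arrays. Cyp2a2 ran with Gstm3, Ung and Bdh1 (0.996, 0.995 and 0.994), Cyp1a2 with Cpt1a, Pithd1 and Prg4 (0.970, 0.967 and 0.966), and Cyp3a18 with Dbi, Usp15 and Gltpd2 (0.996, 0.993 and 0.992). Cyp2a1 ran with Ndufs8, Idh3g and Fabp1 (0.979, 0.979 and 0.974) and Cyp3a9 with Mrpl28, Uqcrfs1 and Taf1d (0.981, 0.980 and 0.979). For Cyp2e1 they were Rnf139, Ip6k2 and Nme3 (0.957, 0.920 and 0.918), with r of 0.076, 0.286 and 0.521 over arrays. For Cyp1a1, mostly below background, they were Eva1a, Sgms1 and Wtap (0.948, 0.919 and 0.912), with r of 0.497, 0.387 and 0.356 over arrays. Among the 9 themselves, Cyp2a1 and Cyp2a2 had r = 0.93 over group means and 0.62 over arrays, Cyp3a2 and Cyp3a18 0.89 and 0.72, and Cyp1a2 and Cyp2b3 -0.01 and -0.13. Arrays share slides and normalisation, and group means number only 8.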

How the data were processed

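Per the labels, RNA was extracted with TriReagent and labelled with biotin using the TotalPrep kit. The authors deposited each probe's bead intensity on a linear scale with a detection p-value, and a table of processed intensity whose columns have a median of 212 and keep the raw rank order. How that table was scaled and centred stays unknown.

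Groups come from the labels. Background and quantile normalisation used neqc of limma 3.58.1 in R 4.3.3, with an offset of 16 and control levels estimated from the detection p-values. Of the probes, 9545 were detected (p under 0.01) on 4 or more arrays, and the brightest probe stood for each of 9314 genes. One linear model with a mean per group (28 residual degrees of freedom) yielded 13 contrasts, adjusted by Benjamini-Hochberg over all genes. It was tested on simulated data. Alternatives changed the normalisation (normexp with offset 50, median scaling, the authors' processed values), the filter (none, or 18 arrays), the probe summary, the blocks (slide, replicate number), the groups in the fit, or left out 1 array. Tables and figures were made with Python 3.11.15, pandas 2.3.3 and matplotlib 3.10.9. Of all probes, 25.6% kept the file's gene name, and the rest were matched to RefSeq. All 9 genes are named, with the 3 most alike genes of each and, from each list, at most 4 called genes per contrast with the largest change. Rxra, Nr1i3, Apoa2 and the undetected markers were named after their values were seen. The 9 genes and the lists were chosen with earlier results of these data known.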

Additional observations from a re-analysis of the deposited data

Results flagged for a closer look

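Of 72 sets of values (9 genes in 8 groups), 3 held a rat far from the others by Dixon's test, which by chance marks about 1 in 20. Cyp1a1 was 6.23 in rat 1 of VAD BDL VEH, where the others lay between 4.51 and 4.71, and 7.34 in rat 5 of VAD BDL VITA, where the others lay between 4.41 and 4.91. Cyp3a2 was 11.66 in rat 2 of VAS sham VITA, where the others lay between 13.56 and 13.91.

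The effect of ligation differed between diets in VEH rats for Cyp3a2 (-3.13) and Cyp2b3 (-0.88), by the diet by ligation term. The effect of retinyl palmitate in ligated rats differed between diets for Cyp2b3 (0.92) and Cyp3a18 (1.47), by the corresponding term.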

How the results depend on the processing

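Of 31 called values of the P450 genes, 23 stayed called under every alternative with a test. Counts of called genes that moved by over 1.5 times were retinyl palmitate in VAD BDL rats (4, and 2 in a fit to the groups compared), ligation in VAD VITA rats (4, and 2 with no filter or in such a fit), diet by ligation (2, and 1 with median scaling or in such a fit) and retinyl palmitate by diet (2, and 4 with slide as a block). With 1 array left out, the counts ran from 2 to 4 for retinyl palmitate in VAD BDL rats and from 2 to 5 for ligation in VAD VITA rats. They ran from 5 to 7, 3 to 4 and 5 to 6 for ligation in VAD VEH, VAS VEH and VAS VITA rats, and the other 8 counts did not move. Over all genes, the fit to the groups compared called 1014 in place of 1582 for retinyl palmitate in VAD BDL rats, 39 in place of 121 in VAD sham rats and 41 in place of 103 for diet in sham VEH rats. Median scaling called 59 for the last of these and 489 in place of 738 for diet by ligation. For diet in BDL VITA rats 0 to 13 were called in place of 3 (1 to 27 with 1 array left out), and for retinyl palmitate in VAS rats up to 2 in place of 0. With 1 array left out, 49 to 109 were called for diet in sham VEH rats and 67 to 120 for retinyl palmitate in VAD sham rats. Among changes at least as large as their SE, the refits turned the sign of Cyp1a1 in VAD against VAS BDL VITA rats (0.50, and -0.04 to 0.70 with 1 array left out, below 0 without VAD BDL VITA rat 5). Called values turned within a slide for Cyp3a18 in VAD against VAS BDL VEH rats within slide 3 (0.15) and Cyp3a9 after ligation in VAD VITA rats within slide 3 (1.76); the cause was not tested. Of 70 within-slide values of called results 2 turned, of 65 for uncalled ones at least as large as their SE 9 turned, and of 90 for smaller ones 37 turned. The 49 changes smaller than their SE, which have no settled direction, had 93 sign changes. Same-numbered rats of different groups did not deviate together (0 of 10 comparisons with every pair above 0.1, range -0.19 to 0.41), and the replicate block moved 1 count, ligation in VAS VITA rats, to 6 in place of 5. Signal over background limits Cyp1a1 in all groups and Cyp3a9 in ligated rats.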
